A study of Mus musculus with 7 samples.

Results

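The genes described are 33 imprinted genes of the mouse, taken from the 52459 gene names of the count file by their symbols. They were listed as expressed imprinted genes by cluster, and Peg10 was chosen by its lower counts with TGFβ1 than with vehicle, so its values in comparisons with TGFβ1 are given as a description with no test. All 33 names were in the file and 30 had enough counts to be tested. The other 3, Kcnq1, Mkrn3 and Nap1l5, were near or at 0 in every library.

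The libraries are bulk RNA sequencing of primary mouse chondrocytes from articular cartilage of the femoral head that were given, for 24 h, vehicle (n = 2, replicates 1 and 2), TGFβ1 at 5 ng/ml (n = 2, replicates 1 and 3) or BMP2 at 100 ng/ml (n = 3, replicates 1 to 3). All cells were grown in medium with serum. TGFβ1 and BMP2 are secreted ligands of 1 family. The labels give no strain, genotype, sex or age of the animals, and they do not say whether replicates are separate animals or cultures, so p-values measure only how far these samples spread, which may be technical. The comparisons ask what each ligand does to transcript levels.

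An imprinted gene is transcribed mainly from the allele of 1 parent, because methylation laid down in the egg or the sperm marks a control region that governs the genes around it. Most imprinted genes therefore lie in clusters in which a few genes are read from the paternal allele and others from the maternal allele. Many of them act on fetal growth: as a group they include ligands, growth inhibitors, receptors and long non-coding RNAs. Several of those described here form a co-regulated network in growing tissues whose expression declines after birth as growth slows. The counts do not separate the parental alleles, so they give the total transcript level and say nothing of imprinting itself; in bulk samples, fewer cells of a type and less RNA per cell cannot be told apart.

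A member is said to have risen or fallen where its adjusted p in edgeR's quasi-likelihood test was under 0.05, with Benjamini-Hochberg adjustment over all 13367 genes tested. A fold change is a log2 value from the edgeR fit, given with its standard error (SE) where the result turns on it. Levels are CPM, the count relative to the scaled library size, listed by replicate in the order of their numbers. The total count was 6885056 and 7387051 with vehicle, 18047765 and 16271793 with TGFβ1, and 6747997 to 10686885 with BMP2. The TGFβ1 libraries differed from the rest by transcript length: over 1164 genes whose principal transcript is 1000 nt or shorter the median of TGFβ1 against vehicle was 2.74, and over 1011 genes above 7000 nt it was −0.57. Comparisons with TGFβ1 were therefore also fitted with an offset that removes trends on transcript length and on GC content, called the length offset here; its values are given for most members. Of the 30 tested members, 9 have a principal transcript above 7000 nt and Phlda2 alone is at most 1000 nt, and their median is 3946 nt beside 2934 nt over all tested genes. The treatment and this difference between libraries cannot be told apart. Replicates also differed unequally. The squared deviation between libraries of a group, relative to counting error and averaged over genes, was 44.6 with TGFβ1 and 4.98 with vehicle. With BMP2 it was 2.10 for replicates 2 and 3, and 13.7 and 17.8 for replicate 1 against these. This measure grows with depth, and the fit shares its estimate of spread over the groups.

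The cells had the defining markers of chondrocytes. The summed level of 8 chondrocyte markers (Col2a1, Acan, Sox9 and others) was 46506 and 46933 CPM with vehicle, 32330 and 38350 CPM with TGFβ1 and 41960 to 48786 CPM with BMP2. With TGFβ1 5 of the 8 fell and 0 rose, beside 25.8% and 30.4% of all tested genes. With the length offset 6 fell and 0 rose, beside 23.8% and 25.3%. With BMP2 0 fell and 1 rose, beside 6.15% and 5.33% of all tested genes. The summed markers of other cell types stayed low: 17.7 and 26.1 CPM with vehicle, 14.7 and 20.7 CPM with TGFβ1 and 11.3 to 14.3 CPM with BMP2 for 6 leukocyte genes, of which Cd3e was at 0 throughout, and 11.8 and 13.2, 8.09 and 11.5, and 6.77 to 9.15 CPM in the same order for 5 fibroblast genes. Endothelial markers summed to 0.134 and 0.359, 0.441 and 0.458, and 1.12 to 1.72 CPM, and neutrophil markers to 1.60 and 1.79, 4.199 and 5.81, and 4.11 to 10.4 CPM. Markers of erythroid cells summed to at most 0.598 CPM, of adipocytes to at most 0.916 CPM and of skeletal muscle to at most 1.20 CPM in any library, and Cdh5, Mpo, Hbb-bs and Myod1 were at 0 in all. Whether the fall in chondrocyte markers has a part in the results below was not tested.

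Pairs of imprinted genes that start next to each other let the levels of neighbours be set side by side. Sgce and Peg10 start 99 bases apart on opposite strands of chromosome 6. Peg3 and Usp29 start 147 bases apart on opposite strands of chromosome 7, and Airn starts within Igf2r, 28353 bases from the start of Igf2r and on the other strand. RefSeq windows of 300 bases, from 250 before to 50 after a start (GRCm38.p6, the build that mm10 names), were at hand for 27 of the 33 members. The windows of the last 4 genes are printed because their expression is compared below, each 5′ to 3′ on the strand of its gene, with CG dinucleotides, where DNA methylation is placed, in capitals: Peg3 at chr7:6730370-6730669 (minus strand), Usp29 at chr7:6730333-6730632 (plus strand), Igf2r at chr17:12769657-12769956 (minus strand) and Airn at chr17:12741061-12741360 (plus strand).
Peg3: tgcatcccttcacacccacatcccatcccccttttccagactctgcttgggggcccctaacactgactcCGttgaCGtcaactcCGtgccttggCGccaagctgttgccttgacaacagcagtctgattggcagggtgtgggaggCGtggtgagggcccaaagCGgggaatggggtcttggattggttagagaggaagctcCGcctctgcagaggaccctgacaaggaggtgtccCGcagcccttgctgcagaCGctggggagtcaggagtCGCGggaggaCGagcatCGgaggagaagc
Usp29: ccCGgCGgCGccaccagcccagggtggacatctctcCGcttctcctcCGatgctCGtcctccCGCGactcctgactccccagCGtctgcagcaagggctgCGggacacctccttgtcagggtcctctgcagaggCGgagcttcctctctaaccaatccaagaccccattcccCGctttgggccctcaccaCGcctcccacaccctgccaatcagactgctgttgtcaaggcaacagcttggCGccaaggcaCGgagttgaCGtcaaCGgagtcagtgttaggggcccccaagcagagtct
Igf2r: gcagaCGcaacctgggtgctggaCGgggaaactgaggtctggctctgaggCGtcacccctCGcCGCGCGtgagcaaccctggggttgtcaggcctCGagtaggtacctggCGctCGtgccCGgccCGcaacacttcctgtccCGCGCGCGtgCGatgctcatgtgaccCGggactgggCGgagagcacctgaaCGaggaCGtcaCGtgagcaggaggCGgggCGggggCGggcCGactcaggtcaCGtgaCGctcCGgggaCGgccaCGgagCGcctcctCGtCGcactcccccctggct
Airn: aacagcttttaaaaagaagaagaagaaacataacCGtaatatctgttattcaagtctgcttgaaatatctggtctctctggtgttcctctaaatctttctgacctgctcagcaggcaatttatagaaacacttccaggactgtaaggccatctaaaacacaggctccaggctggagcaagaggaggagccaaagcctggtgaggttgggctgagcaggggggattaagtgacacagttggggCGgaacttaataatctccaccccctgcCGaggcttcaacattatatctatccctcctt

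The Peg3 and Usp29 windows share 263 bases, read on opposite strands. The Peg3 window holds 13 CG and the Usp29 window 17, counts that 37.9% and 31.4% of the 32851 windows reach. The Igf2r window holds 34 CG, which 7.7% of windows reach, and the Airn window 3, which 76.7% reach. The median over all windows was 7 CG.

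In the vehicle libraries H19 was by far the most abundant member per length. H19, a long non-coding RNA read from the maternal allele, stood at 781 ± 28.4 CPM per kb (SD, n = 2), with lengths from the deposited file. Mest followed at 122 ± 8.95 and Peg3 at 105 ± 13.7 CPM per kb. Plagl1 (63.9 ± 1.67), Grb10 (57.6 ± 1.86) and Cdkn1c (49.9 ± 4.22) came next, and no 2 neighbours in this order down to Cdkn1c overlapped in their libraries. Ndn, Impact, Peg10 and Igf2r lay close together, at 22.4, 20.8, 20.2 and 20.1 CPM per kb, each overlapping the next in its range. The lowest tested members were Ascl2, Magel2, Ppp1r9a, Nnat and Usp29, between 0.156 and 0.616 CPM per kb. Peg10 was 9th of the 33 with vehicle, 22nd with TGFβ1 and 6th with BMP2. The 33 members together held 0.671% and 0.686% of all counts with vehicle, 0.169% and 0.195% with TGFβ1 and 0.508% to 0.603% with BMP2.

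**Figure D1:**
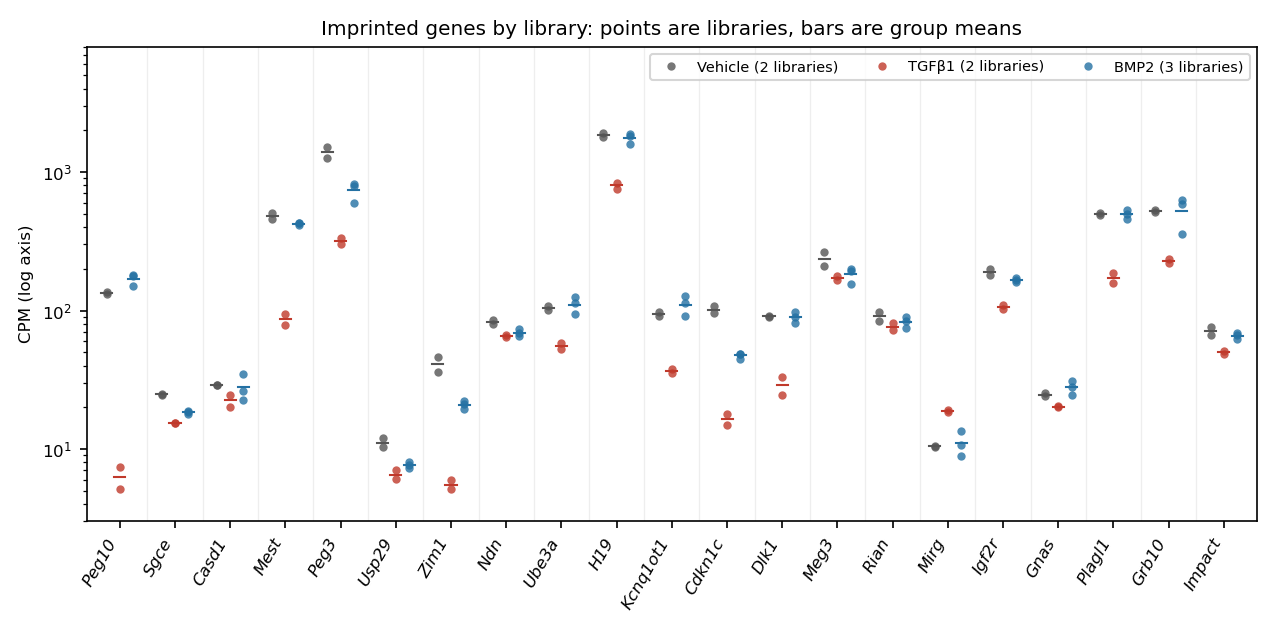
Level of the 21 imprinted genes with a mean of at least 10 CPM in any group, on a log axis in CPM; each point is 1 library and each bar a group mean, with vehicle in grey, TGFβ1 in red and BMP2 in blue. Peg10 stands at 5.15 and 7.41 CPM with TGFβ1 beside 132 and 137 CPM with vehicle, and Mirg is the gene plotted whose TGFβ1 libraries lie above all others.

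With TGFβ1, 19 of the 29 tested members other than Peg10 fell and 2 rose. These counts include Magel2 among the lower and Ascl2 among the higher, both from few counts. Magel2 passed the filter on low counts only through vehicle and BMP2 libraries, and Ascl2 only through BMP2 libraries. Neither is therefore given a p below. Over all 13367 tested genes 25.8% fell and 30.4% rose (56.2% changed). The median fold change of these 29 members was −0.84, beside −0.02 over all tested genes. With the length offset 15 fell and 3 rose, beside 23.8% and 25.3% of all genes with that offset (49.1% changed), and the median was −0.71. Leaving out each library in turn gave 16 to 19 that fell and 1 to 3 that rose. Of 14 tested members read from the paternal allele, Peg10 aside, 11 fell and 0 rose (9 and 0 with the offset). Magel2 is among those that fell, and with the offset Nnat, which had few counts too. In the edgeR fit that gave these calls 0 had a higher level at an unadjusted p under 0.05, and in DESeq2 10 fell and 0 rose. Snrpn, also 1 of these 14, did rise in other fits. These were the fits with low counts left unfiltered, with only the libraries compared, with the replicate block and without BMP2 replicate 1. Of 10 read from the maternal allele 5 fell and 2, Ascl2 and Mirg, rose (5 and 3 with the offset). Of the 5 whose allele depends on the tissue, 3 fell (Ppp1r9a, Ube3a and Grb10) and 0 rose, and with the offset 1 fell (Grb10). A difference between the paternal and the maternal genes was not tested.

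**Figure D2:**
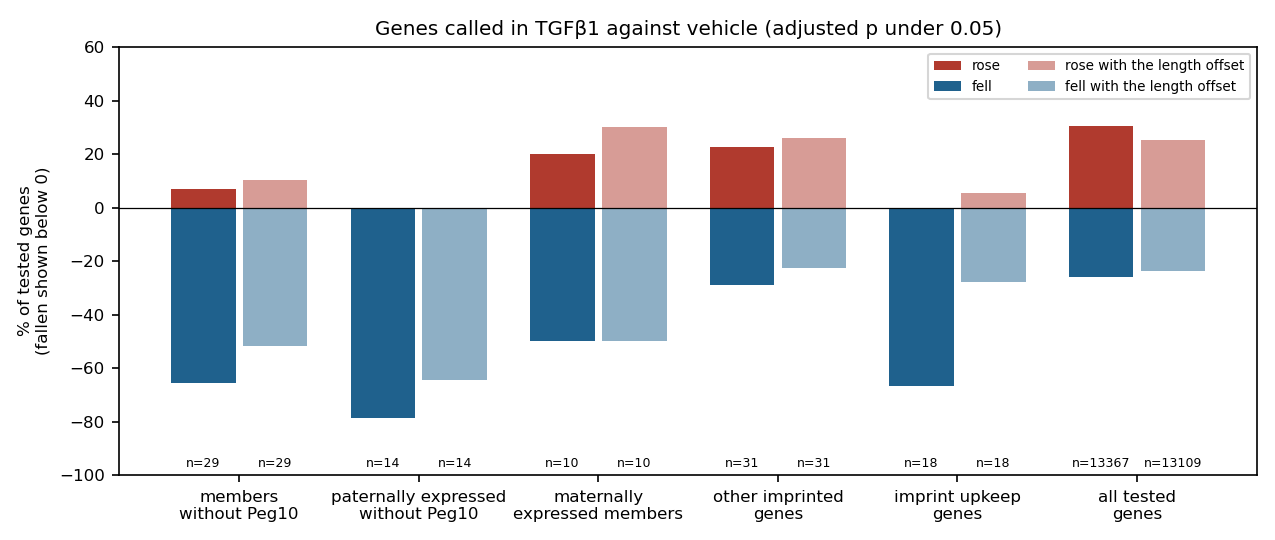
Share of tested genes that rose (bars above 0) or fell (bars below 0) with TGFβ1 against vehicle, in percent, for the imprinted members, those of them read from the paternal and from the maternal allele, the lists of other imprinted genes and of genes of imprint upkeep, and all tested genes, in dark colours without and in pale colours with the length offset; n is the number tested. Among the members other than Peg10 65.5% fell, beside 25.8% of all genes, and 51.7% beside 23.8% with the offset. Magel2, at few counts, is in both shares of members, and Nnat in that with the offset. Nespas, at few counts too, is among the other imprinted genes tested.

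In the Peg10-Sgce cluster of chromosome 6 Peg10 was far lower with TGFβ1, Sgce and the little expressed Ppp1r9a fell, and Casd1 and Asb4 did not pass. Peg10 (chromosome 6, 4747306 to 4760517), a paternally expressed gene derived from a retrotransposon and needed for the placenta, stood at 132 and 137 CPM with vehicle, 5.15 and 7.41 CPM with TGFβ1 and 180, 151 and 177 CPM with BMP2. The TGFβ1 libraries lay far below the rest, and the BMP2 libraries lay above both vehicle libraries. The fold change of TGFβ1 against vehicle was −4.42 (SE 0.19), and −3.94 (SE 0.18) with the length offset. BMP2 against vehicle gave 0.33 (SE 0.14), which did not pass (adjusted p = 0.178).

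Sgce (4674350 to 4747207), the paternally expressed gene of epsilon-sarcoglycan, stood at 25.1 and 24.6 CPM with vehicle, 15.3 and 15.3 CPM with TGFβ1 and 18.6, 18.0 and 18.7 CPM with BMP2. Its groups did not overlap, and BMP2 lay between the others. With TGFβ1 Sgce fell by 0.70 on the log2 scale (SE 0.13, adjusted p = 8.87e-04; −0.84 with the length offset). With BMP2 it fell by 0.43 (SE 0.12, adjusted p = 0.0377), a call that did not hold in DESeq2 (adjusted p = 0.235), with low counts left unfiltered (0.119), with the replicate number as a block (0.147) or without any one of BMP2 replicates 2 and 3 and vehicle replicates 1 and 2 (adjusted p = 0.0948 to 0.204). The fold changes with TGFβ1 were thus −4.42 for Peg10 and −0.70 for the neighbour that starts 99 bases away; the difference between them was not tested.

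Casd1, which encodes a sialic acid O-acetyltransferase, stood at 28.7 and 29.2 CPM with vehicle, 20.2 and 24.7 CPM with TGFβ1 and 34.7, 26.4 and 22.6 CPM with BMP2. Its fold change of −0.37 with TGFβ1 did not pass (adjusted p = 0.133; 0.0431 without BMP2 replicate 1), nor did −0.05 with BMP2. Ppp1r9a, the gene of the actin-binding protein neurabin, was low, at 7.09 and 3.47 CPM with vehicle, 1.47 and 2.67 CPM with TGFβ1 and 2.06 to 2.54 CPM with BMP2. With TGFβ1 Ppp1r9a fell by 1.34 (SE 0.39, adjusted p = 0.0135), but did not pass given the length offset (−0.71), without TGFβ1 replicate 1 (−0.96) or without vehicle replicate 1 (−0.79). With BMP2 its fold change was −1.17 (SE 0.36, adjusted p = 0.0636); 5 of the 13 alternatives called it, among them the fit without vehicle replicate 2 (−1.60). Asb4, a maternally expressed gene of a ubiquitin ligase adaptor, lay between 5.97 and 7.66 CPM in every library and did not pass in either comparison with vehicle (−0.14 with TGFβ1 and −0.31 with BMP2).

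Elsewhere on chromosome 6, Mest (30723547 to 30748465), a paternally expressed gene of a hydrolase-like protein that promotes growth, stood at 456 and 506 CPM with vehicle, 78.3 and 94.0 CPM with TGFβ1 and 428, 426 and 414 CPM with BMP2. The TGFβ1 libraries lay apart from all others. Mest fell with TGFβ1 by 2.48 (SE 0.14, adjusted p = 1.83e-07; −2.44 with the offset), and its fold change of −0.19 (SE 0.12) with BMP2 did not pass. Copg2 on the other strand covers 23.1% of its exon bases, and reads of the 2 cannot be told apart unless strand was used in counting, a setting not given in the sources used here. Nap1l5 had 1 count in TGFβ1 replicate 1, 1 in BMP2 replicate 3 and 0 in the other 5 libraries.

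In the Peg3 domain of chromosome 7 all 3 members fell with TGFβ1 and both of the more abundant ones fell with BMP2. Peg3 (6703892 to 6730431), a paternally expressed zinc finger gene, stood at 1522 and 1264 CPM with vehicle, 302 and 333 CPM with TGFβ1 and 599, 795 and 821 CPM with BMP2. The 3 groups did not overlap, with BMP2 between vehicle and TGFβ1. Peg3 fell with TGFβ1 by 2.13 (SE 0.18, adjusted p = 3.96e-06; −1.53 with the offset) and with BMP2 by 0.92 (SE 0.16, adjusted p = 0.00397). The fall with BMP2 did not pass without vehicle replicate 1 (−0.77, adjusted p = 0.0710).

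Zim1 (6671269 to 6696450), a maternally expressed zinc finger gene next to Peg3, stood at 46.3 and 36.2 CPM with vehicle, 5.96 and 5.12 CPM with TGFβ1 and 21.2, 19.4 and 22.1 CPM with BMP2. The order of the groups was that of Peg3, again with no overlap. Zim1 fell with TGFβ1 by 2.89 (SE 0.17, adjusted p = 2.51e-07; −2.28 with the offset) and with BMP2 by 0.98 (SE 0.14, adjusted p = 0.00148). Usp29, a paternally expressed gene of a ubiquitin protease that shares its start region with Peg3 as the printed windows show, stood at 10.3 and 12.0 CPM with vehicle, 6.03 and 7.02 CPM with TGFβ1 and 8.06, 7.29 and 7.62 CPM with BMP2. The fall of Usp29 with TGFβ1 was −0.77 (SE 0.18, adjusted p = 0.00409), but with the length offset its fold change was −0.20 and did not pass. The fold change with BMP2 was −0.54 (SE 0.17, adjusted p = 0.0643).

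**Figure D3:**
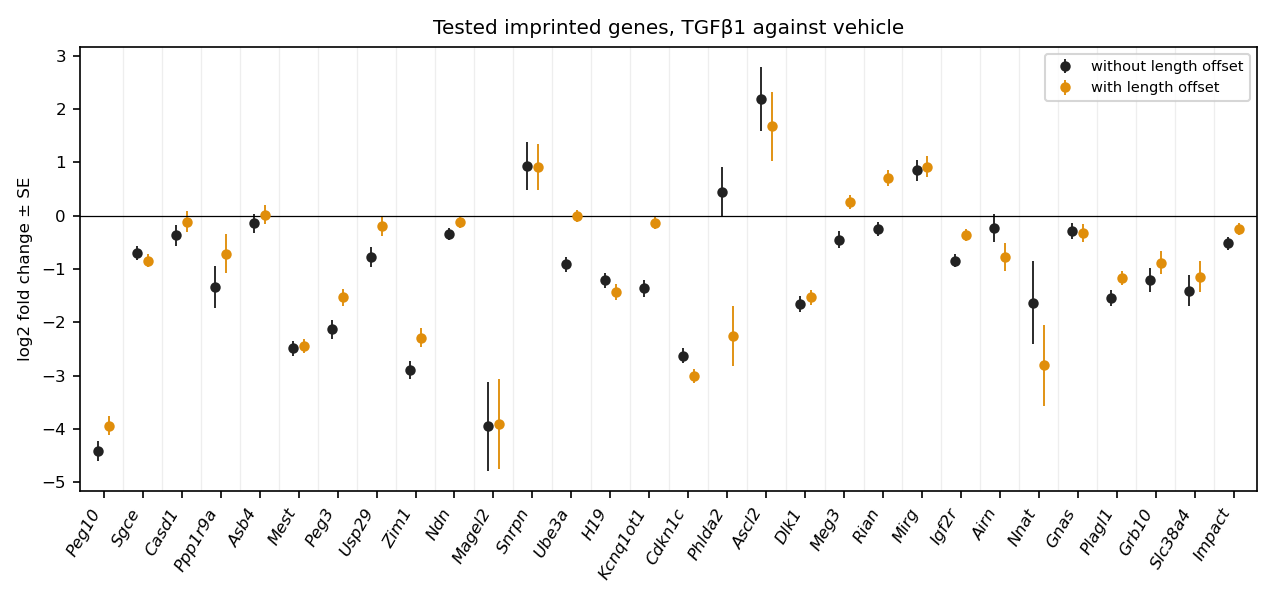
Log2 fold change of TGFβ1 against vehicle (SE as bars) for the 30 tested imprinted genes in the order of their clusters, without the length offset in black and with it in orange. Among others, Peg10, Mest, Peg3, Zim1, H19, Cdkn1c and Dlk1 lie more than 1 below 0 either way, while Ube3a moves from −0.91 to 0.00 and Kcnq1ot1 from −1.36 to −0.13 with the offset.

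In the domain of chromosome 7 that is lost in the Prader-Willi and Angelman syndromes of humans, the calls with TGFβ1 either rested on few counts or did not hold with the length offset. Ndn (62346569 to 62350262), the paternally expressed gene of necdin, which restrains cell growth, stood at 80.5 and 84.9 CPM with vehicle, 64.6 and 66.0 CPM with TGFβ1 and 73.7, 65.4 and 68.5 CPM with BMP2. Ndn fell with TGFβ1 by 0.34 (SE 0.12, adjusted p = 0.0284), a call lost with the offset (−0.11), in DESeq2 (adjusted p = 0.0655), with the replicate number as a block (adjusted p = 0.133) and without any one of the vehicle or TGFβ1 libraries (adjusted p = 0.0526 to 0.151). Ube3a, the gene of a ubiquitin ligase that is read from the maternal allele in neurons, stood at 107 and 101 CPM with vehicle, 52.5 and 57.9 CPM with TGFβ1 and 93.7, 124 and 114 CPM with BMP2. With TGFβ1 Ube3a fell by 0.91 (SE 0.15, adjusted p = 4.34e-04), but its fold change was 0.00 with the offset. Its principal transcript has 9856 nt, and genes on the other strand cover 27.3% of its exon bases.

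Snrpn, a paternally expressed gene of a splicing protein, differed between replicates: 4.28 and 5.74 CPM with vehicle, 12.4 and 6.80 CPM with TGFβ1 and 7.81, 3.71 and 2.45 CPM with BMP2. Its fold change of 0.93 (SE 0.46) with TGFβ1 did not pass (adjusted p = 0.105), and passed without TGFβ1 replicate 3 (1.31), without BMP2 replicate 1 (0.93), with low counts left unfiltered (0.89), with only the libraries compared (0.92) and with the replicate block (1.25). Magel2, a paternally expressed relative of Ndn, had 13 and 8 counts with vehicle, 2 and 0 with TGFβ1 and 11, 4 and 11 with BMP2. Per scaled library size its pooled level with TGFβ1 was 17.7-fold lower than with vehicle, with an exact 95% counting interval of 4.33 to 156, which covers counting error only. No p is given for Magel2, since it passed the filter on low counts through libraries with more of it. The interval takes no account of that filter and is no test of a fall. Mkrn3 had 2 to 6 counts in every library.

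On distal chromosome 7 H19 fell with TGFβ1, and with BMP2 did not pass. H19 (142575529 to 142578143) stood at 1901 and 1806 CPM with vehicle, 760 and 840 CPM with TGFβ1 and 1601, 1819 and 1871 CPM with BMP2. The TGFβ1 libraries lay apart from the rest, and those of BMP2 overlapped vehicle. H19 fell with TGFβ1 by 1.21 (SE 0.14, adjusted p = 3.46e-05; −1.44 with the offset), and the fold change with BMP2 was −0.07 (SE 0.12, adjusted p = 0.774). Igf2, the paternally expressed growth factor gene next to it, belongs to the list of other imprinted genes; it stood at 2240 ± 123 CPM with vehicle (SD, n = 2), 1148 ± 91.6 CPM with TGFβ1 (n = 2) and 2160 ± 178 CPM with BMP2 (n = 3). Igf2 fell with TGFβ1 by 0.96 (SE 0.14, adjusted p = 1.91e-04), although other genes cover 64.5% of its exon bases.

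In the neighbouring Kcnq1ot1 domain Cdkn1c fell with both ligands. Cdkn1c (143458339 to 143461050), the maternally expressed gene of the cyclin-dependent kinase inhibitor p57, stood at 95.6 and 108 CPM with vehicle, 17.95 and 15.0 CPM with TGFβ1 and 48.7, 44.8 and 48.7 CPM with BMP2. The 3 groups did not overlap. Cdkn1c fell with TGFβ1 by 2.63 (SE 0.14, adjusted p = 9.96e-08; −3.01 with the offset) and with BMP2 by 1.10 (SE 0.12, adjusted p = 2.31e-04). A gene on the other strand covers 30.7% of its exon bases.

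Kcnq1ot1, the long non-coding RNA that silences this domain on the paternal allele, stood at 97.6 and 92.0 CPM with vehicle, 38.1 and 35.7 CPM with TGFβ1 and 92.0, 113 and 127 CPM with BMP2. With TGFβ1 it fell by 1.36 (SE 0.16, adjusted p = 3.82e-05), but given the length offset it did not pass (−0.13). At 93092 nt its principal transcript in the annotation is the longest among those of the members. Kcnq1, the potassium channel gene that it overlaps, had 0 to 2 counts in each library. Phlda2, a maternally expressed growth restraint of the placenta, lay between 0.837 and 2.73 CPM. Its fold changes of 0.45 with TGFβ1 and 1.06 with BMP2 did not pass, and with the offset (757 nt) it was lower with TGFβ1 (−2.26, adjusted p = 0.00589). Ascl2, a transcription factor gene of the placenta, had 2 and 2 counts with vehicle, 18 and 14 with TGFβ1 and 8, 8 and 12 with BMP2. Pooled, its level with TGFβ1 was 4.75 times that with vehicle (exact 95% counting interval 1.68 to 18.5). No p is given for Ascl2 either, since it passed the filter on low counts only through BMP2 libraries. Its interval, too, covers counting error only, takes no account of that filter and is no test of a rise.

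**Figure D4:**
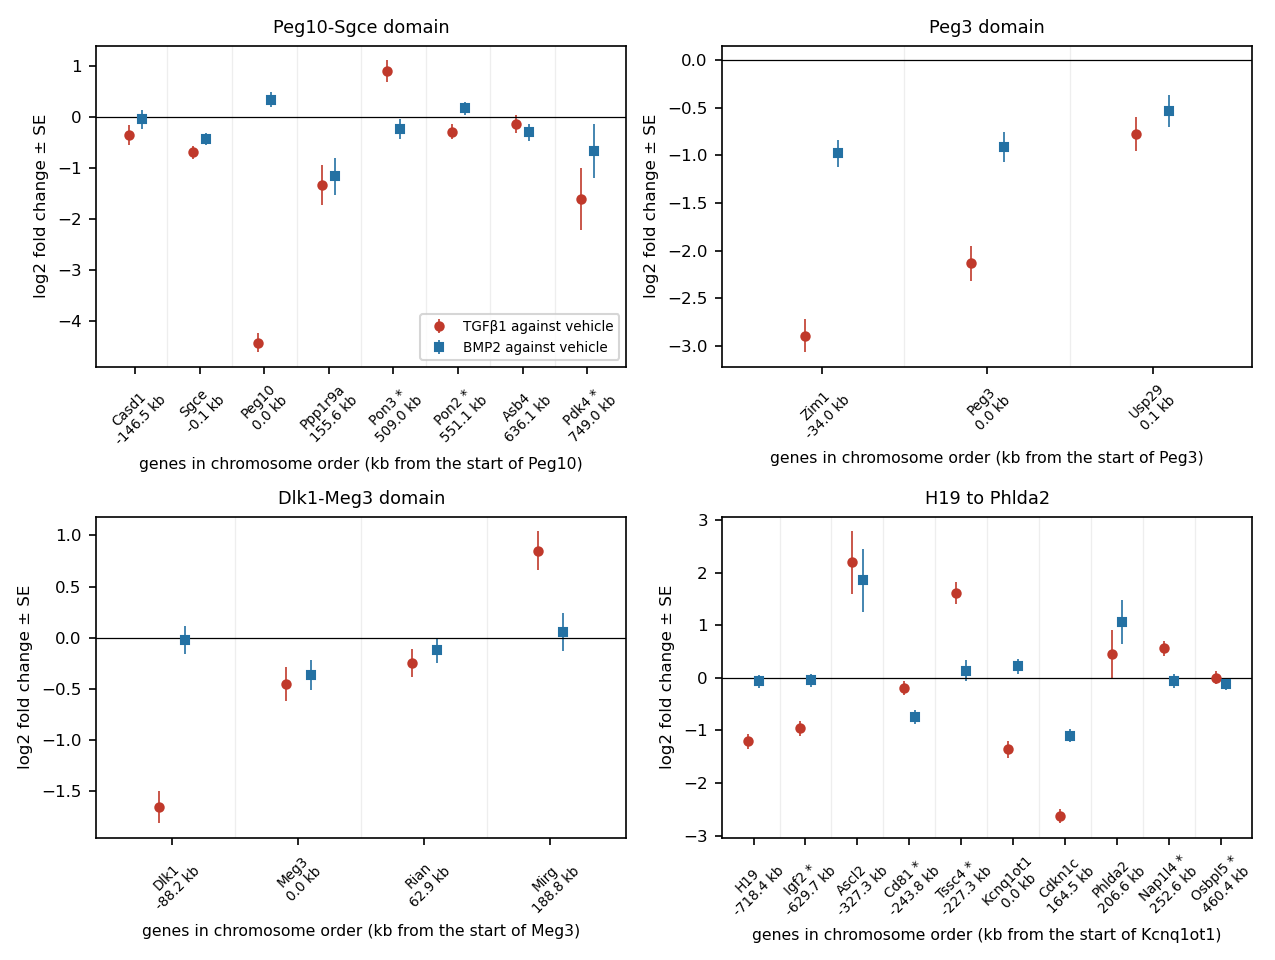
Log2 fold change against vehicle (SE as bars) of tested genes in 4 imprinted regions, with TGFβ1 as red circles and BMP2 as blue squares; genes stand in chromosome order, evenly spaced, with the distance of their start from that of a reference gene in kb, and an asterisk marks a gene of the list of other imprinted genes. The values with TGFβ1 run from −1.65 for Dlk1 to 0.85 for Mirg on chromosome 12. Peg10 stands at −4.42 and its neighbour Sgce at −0.70 with TGFβ1. Peg10 was chosen by its lower counts with TGFβ1, so the gap between these 2 is a description only.

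In the Dlk1-Meg3 domain of chromosome 12 Dlk1 and Meg3 fell with TGFβ1, Rian did not pass and Mirg rose. Dlk1 (109452823 to 109463336), a paternally expressed transmembrane protein of the Notch ligand family found in progenitor cells, stood at 92.0 and 89.2 CPM with vehicle, 24.7 and 32.8 CPM with TGFβ1 and 97.0, 89.5 and 81.5 CPM with BMP2. Dlk1 fell with TGFβ1 by 1.65 (SE 0.15, adjusted p = 8.47e-06; −1.53 with the offset). BMP2 overlapped vehicle, with a fold change of −0.02 (SE 0.14).

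The other 3 are non-coding RNAs read from the maternal allele, and carry small nucleolar RNAs and microRNAs. Meg3 (109541001 to 109571726) stood at 264 and 208 CPM with vehicle, 167 and 178 CPM with TGFβ1 and 155, 194 and 200 CPM with BMP2. Meg3 fell with TGFβ1 by 0.45 (SE 0.16, adjusted p = 0.0374), a call lost with the block (adjusted p = 0.0777) and without TGFβ1 replicate 1 or 3, vehicle replicate 1 or BMP2 replicate 2 (adjusted p = 0.127, 0.0598, 0.233 and 0.0544). With the offset the value was 0.26 and did not pass. Rian stood at 97.3 and 84.0 CPM with vehicle, 72.3 and 80.7 CPM with TGFβ1 and 89.6, 75.3 and 84.3 CPM with BMP2. Its fold change of −0.24 (SE 0.14, adjusted p = 0.147) did not pass, whereas with the offset it was higher with TGFβ1 (0.70, adjusted p = 0.00273).

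Mirg (109729764 to 109749460), which hosts a large cluster of microRNAs, stood at 10.6 and 10.3 CPM with vehicle, 19.2 and 18.4 CPM with TGFβ1 and 8.84, 13.4 and 10.7 CPM with BMP2. Both TGFβ1 libraries were above all others. Mirg rose with TGFβ1 by 0.85 (SE 0.19, adjusted p = 0.00318; 0.92 with the offset) and was called so in each of the 13 alternatives. With BMP2 it stood at 0.06 (SE 0.19). Counts per gene do not show whether the small RNAs within these hosts changed.

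On chromosome 17 Igf2r and Airn are an antisense pair. Igf2r (12682406 to 12769664), the maternally expressed receptor that clears IGF2 from the cell surface, stood at 199 and 180 CPM with vehicle, 102 and 109 CPM with TGFβ1 and 171, 159 and 165 CPM with BMP2. The fall of Igf2r with TGFβ1 was −0.84 (SE 0.12, adjusted p = 1.96e-04; −0.36 with the offset, adjusted p = 0.0254), and its fold change of −0.20 (SE 0.11) with BMP2 did not pass. Airn, the non-coding RNA whose transcription silences Igf2r on the paternal allele, lay between 5.04 and 9.88 CPM in all libraries. Its fold change with TGFβ1 was −0.23 (SE 0.27, adjusted p = 0.480), and −0.77 with the offset, which passed (adjusted p = 0.0298). For this the offset took the 1375 nt of Airn's principal transcript, while the gene spans 12741311 to 12860136. The value for a longer transcript was not tested.

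Of the 6 members described on their own, 4 fell with TGFβ1. Plagl1 (chromosome 10, 13060504 to 13131694), a paternally expressed zinc finger factor that restrains cell growth and regulates other imprinted genes, stood at 509 and 491 CPM with vehicle, 157 and 187 CPM with TGFβ1 and 460, 500 and 535 CPM with BMP2. Plagl1 fell with TGFβ1 by 1.54 (SE 0.14, adjusted p = 7.46e-06; −1.17 with the offset), and with BMP2 its fold change was −0.00 (SE 0.13).

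Grb10 (chromosome 11, 11930508 to 12038683), an adaptor that restrains insulin and IGF signalling and is read from the maternal allele in most tissues, stood at 512 and 536 CPM with vehicle, 235 and 219 CPM with TGFβ1 and 355, 629 and 589 CPM with BMP2. BMP2 replicate 1 lay well below the other BMP2 libraries. Grb10 fell with TGFβ1 by 1.21 (SE 0.23, adjusted p = 0.00122; −0.88 with the offset), and with BMP2 its fold change was 0.00 (SE 0.21). Slc38a4, a paternally expressed amino acid transporter gene, stood at 4.01 and 4.55 CPM with vehicle, 1.40 and 1.83 CPM with TGFβ1 and 7.72, 5.70 and 7.15 CPM with BMP2, and fell with TGFβ1 by 1.40 (SE 0.29, adjusted p = 0.00194). All 3 BMP2 libraries were above vehicle, but the fold change of 0.69 (SE 0.23) did not pass (adjusted p = 0.0839).

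Impact, a paternally expressed regulator of the amino acid stress kinase GCN2, stood at 66.9 and 76.2 CPM with vehicle, 51.4 and 48.5 CPM with TGFβ1 and 61.8, 69.1 and 66.5 CPM with BMP2. With TGFβ1 it fell by 0.52 (SE 0.12, adjusted p = 0.00454), and did not pass with the offset (−0.25), with the replicate block (−0.45) or without vehicle replicate 2 (−0.42). Gnas, which encodes the stimulatory G protein alpha subunit and several imprinted transcripts, stood at 24.1 and 25.2 CPM with vehicle, 20.01 and 20.5 CPM with TGFβ1 and 24.5, 28.0 and 31.1 CPM with BMP2. Its fold change of −0.29 with TGFβ1 did not pass (adjusted p = 0.116), and genes on the other strand cover 22.0% of its exon bases. Nnat, the gene of neuronatin, had 10 and 5 counts with vehicle, 7 and 1 with TGFβ1 and 6, 6 and 12 with BMP2. Its fold change of −1.63 with TGFβ1 did not pass, and was −2.81 with the offset and −3.43 without TGFβ1 replicate 1. The last 2 values are given with no test. Nnat passed the filter on low counts only through a vehicle and a BMP2 library, which had more of it.

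With BMP2, 4 of the 30 tested members fell (Sgce, Peg3, Zim1 and Cdkn1c) and 0 rose, where 6.15% of all tested genes fell and 5.33% rose (11.5% changed). The median fold change of the 30 was −0.10, beside 0.00 over all genes. With the length offset 4 again fell and 0 rose, with 6.45% and 6.86% of all genes (13.3% changed). At an unadjusted p under 0.05 in edgeR 3 of the 29 members other than Peg10 were higher and 8 lower. Ascl2 is among the higher, and it passed the filter on low counts only through BMP2 libraries. In DESeq2 0 were higher and 6 lower at an unadjusted p under 0.05, and 0 higher and 3 lower by adjusted p. Without vehicle replicate 1 2 fell, and 5 fell without either TGFβ1 library. Of the fifth gene then called, Ppp1r9a, the values are given above. Both comparisons with vehicle share the same 2 vehicle libraries.

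**Figure D5:**
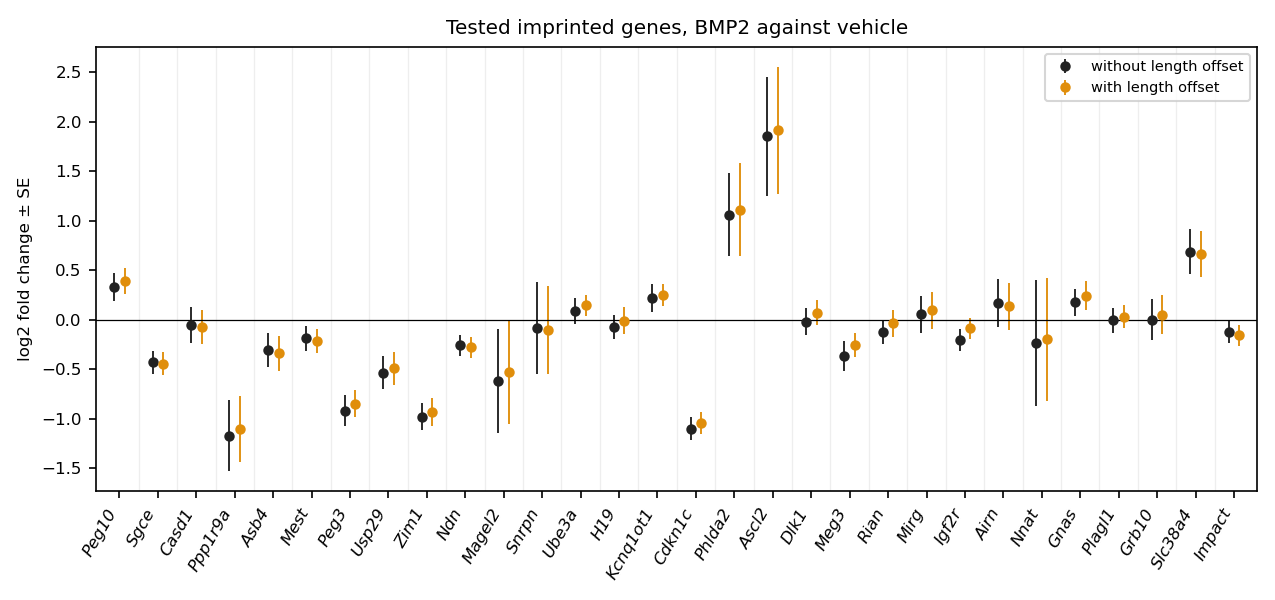
Log2 fold change of BMP2 against vehicle (SE as bars) for the 30 tested imprinted genes in the order of their clusters, without the length offset in black and with it in orange. Cdkn1c (−1.10), Zim1 (−0.98), Peg3 (−0.92) and Sgce (−0.43) fell; Ascl2 and Phlda2 lie highest with long bars and did not pass.

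In the direct comparison of the ligands, 15 of the 29 tested members other than Peg10 were higher with BMP2 than with TGFβ1 and 2, Mirg and Snrpn, were lower. Over all tested genes 28.1% were higher and 33.3% lower (61.4% changed), and with the length offset 27.3% and 28.2% (55.6% changed), with 17 members higher and 4 lower. Peg10 lay 4.75 higher with BMP2 (SE 0.19, given with no test). Mest (2.29), Slc38a4 (2.09), Zim1 (1.92), Dlk1 (1.64), Kcnq1ot1 (1.58; 0.38 with the offset), Plagl1 (1.54), Cdkn1c (1.53), Peg3 (1.22), Grb10 (1.21) and H19 (1.14) were higher, as were Magel2 at low counts and Ube3a (1.00; 0.14 with the offset), Igf2r (0.64), Gnas (0.46) and Impact (0.40; 0.09 with the offset). The call of Ube3a was lost with the offset (adjusted p = 0.265), and that of Impact with the offset (0.489), with the replicate block (0.0670) and without TGFβ1 replicate 3 (0.0515). Mirg was lower with BMP2 (−0.79, SE 0.17, adjusted p = 0.00177). The call of Snrpn (−1.01, adjusted p = 0.0462) was lost in DESeq2, with only the libraries compared and without 5 of the 7 libraries in turn. With the offset Meg3 and Rian, which had not passed at 0.08 and 0.12, were lower with BMP2 (−0.52 and −0.74). Phlda2 (3.37), Airn (0.90) and Sgce (0.40), which had not passed, were then higher with BMP2. The value of Nnat with the offset was 2.61. The counts of higher members include Magel2, and with the offset Nnat, but both are given with no test because of the filter on low counts.

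Among other imprinted genes the shares that rose and fell with TGFβ1 lay near those of all genes. Of 47 such genes, among them some imprinted only in certain tissues, 31 were tested; with TGFβ1 9 fell and 7 rose, or 29.0% and 22.6% beside 25.8% and 30.4% of all tested genes. With the offset 7 fell and 8 rose, and their median without it was −0.25. Nespas, 1 of the 31 tested, had 5 and 2 counts with vehicle, 22 and 23 with TGFβ1 and 6, 6 and 3 with BMP2. It passed the filter on low counts only through TGFβ1 libraries, which had more of it, and is given with no test. The 4 with the smallest p were Mcts2, a translation factor gene, which rose by 3.06 (1.04 with the offset; 912 nt), the homeobox gene Dlx5, which fell by 2.58 (−3.25), the actin nucleator gene Cobl, which fell by 1.31 (−1.02), and Tssc4, which rose by 1.61 (0.99). With BMP2 5 fell and Dlx5 rose (1.13), or 16.1% and 3.2% beside 6.15% and 5.33% of all tested genes. Fewer fell without either of the vehicle replicates. The falls included the proteoglycan gene Dcn (−1.35, SE 0.12, adjusted p = 5.94e-05), the tetraspanin gene Cd81 (−0.75) and the adaptor gene Gab1 (−1.02). Dcn stood at 1553 ± 38.7 CPM with vehicle (SD, n = 2), 1468 ± 120 CPM with TGFβ1 (n = 2) and 609 ± 24.1 CPM with BMP2 (n = 3). Between the ligands 9 were higher and 11 lower with BMP2 (29.0% and 35.5%), near the 28.1% and 33.3% of all tested genes. The smallest p were those of Dlx5 (3.71), Mcts2 (−3.09), Dcn (−1.27) and Commd1 (−1.62).

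Genes that set, keep or erase imprints were measured as well. Of 18 such genes, all tested, 12 fell and 0 rose with TGFβ1 (66.7% fell, beside 25.8% of all tested genes), with a median of −0.51. With the length offset 5 fell and 1 rose, with a median of −0.20, and the 27.8% that fell lay near the 23.8% of all genes. Tet1 and Tet3, whose enzymes oxidise methylated cytosine, had fold changes of −1.72 (SE 0.20) and −0.80 (SE 0.12), and of −0.95 and −0.63 with the offset, and fell either way. Zfp445, a zinc finger protein that binds imprinted control regions, and the DNA methyltransferase gene Dnmt3a fell too (−0.82 and −0.64), and did not pass given the offset (−0.33 and −0.17). Without TGFβ1 replicate 1 5 fell, and without vehicle replicate 2 6 fell. With BMP2 0 of the 18 passed in edgeR or in DESeq2. At an unadjusted p under 0.05 in edgeR 1 was higher and 3 were lower. The smallest adjusted p there were those of Ezh2 (0.0685) and Tet3 (0.0799). In the edgeR fit without BMP2 replicate 1, 1 of the 18 rose with BMP2. Between the ligands 9 were higher with BMP2 (50.0%) and Ehmt2 lower (5.6%), beside 28.1% and 33.3% of all tested genes. Ezh2 (0.91), Tet1 (1.25), Tet2 (0.83) and Zfp445 (0.76) had the smallest p. With the offset 5 were higher and 3 lower (27.8% and 16.7%), beside 27.3% and 28.2% of all genes. The share that was higher thus lay near that of all genes, and Tet2 and Zfp445 did not pass (0.27 and 0.29).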

How the data were processed

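Bulk RNA sequencing counts of 7 libraries were used, 2 with vehicle, 2 with TGFβ1 and 3 with BMP2. The authors deposited whole-number counts by gene name for every library, and also a length in bases for each gene, used only for levels per kb; 93.6% of the lengths equal the summed exons of the annotation. Cutadapt, STAR 2.4.2a, Subread, featureCounts and DESeq2 with mm10 are named per the submitters' processing notes, with no order; the annotation, the strand setting and the rule for multi-mapping reads were not given in the sources used here. Counts were taken as raw, since totals differed between libraries (6747997 to 18047765).

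Counts were analysed in edgeR 4.0.16 (R 4.3.3) with filterByExpr (13367 genes), TMM scaling and 1 quasi-likelihood fit of 3 group means over all 7 libraries (4 residual degrees of freedom, common biological coefficient of variation 0.133); tests were 2-sided, p-values were adjusted by Benjamini-Hochberg over every gene tested, and the threshold was 0.05. Positions, exon overlap and principal transcripts came from GENCODE M21 (mm10), with 48108 names matched and all 33 members among them. The length offset was taken from lowess curves of log2 CPM, with a prior count of 1, fitted in each library against transcript length (span 0.15) and GC content (span 0.3) of 13109 genes. DESeq2 1.42.0 was an alternative, beside DESeq2 size factors, a fit with low counts left unfiltered, only the libraries compared, the replicate number as a block and leaving out each library. The fits were run on simulated counts with the same spread for every gene and no trend on transcript length. That check therefore does not cover the length difference of the TGFβ1 libraries. Depth limits rare transcripts: 3 counts, the limit that a count of 0 allows, equal 0.221 to 0.401 CPM per library. The members, lists and alternatives were chosen with earlier results of these data known. All 33 members are described, those with a mean of at least 10 CPM in a group by every library. Of the 2 further lists the up to 4 genes with the smallest p in each comparison are described. Igf2 and Nespas, which belong to the first of these lists, and Ehmt2 were named with their values in view.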

Additional observations from a re-analysis of the deposited data

How the results depend on the processing

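Peg10 aside, the counts of imprinted members called in TGFβ1 against vehicle (21) and in BMP2 against TGFβ1 (17) stayed within 1.5 times of these values in all 13 alternatives, at 17 to 22 and 16 to 21. In BMP2 against vehicle the count of 4 was 2 without vehicle replicate 1 and 2 to 5 over all libraries left out. The length offset turned the sign of 4 members in TGFβ1 against vehicle, Ube3a (0.00), Phlda2 (−2.26), Meg3 (0.26) and Rian (0.70), and of Meg3 (−0.52) and Rian (−0.74) in BMP2 against TGFβ1; the cause was not tested. Sign changes of values that passed in neither fit are not counted here. DESeq2 size factors changed no call of a member against vehicle.

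With the replicate number as a block (2 residual degrees of freedom) 19 members other than Peg10 were called in TGFβ1 against vehicle, 3 in BMP2 against vehicle and 16 in BMP2 against TGFβ1. Same-numbered libraries did not deviate together (correlations of −0.139 to −0.001 over genes), so the numbers were not taken to pair them. Low counts limit Ascl2, Magel2, Nnat, Phlda2, Kcnq1, Mkrn3 and Nap1l5. Magel2 is nevertheless among the members counted as called in both comparisons with TGFβ1, and Ascl2 among those in TGFβ1 against vehicle.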
